A study of Mus musculus with 4 samples.

Results

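Cd209a-positive dendritic cells of the mouse dorsal root ganglion (DRG) were taken from single cell RNA-seq libraries by a marker rule. A droplet barcode was kept with 600 to 15000 unique molecular identifiers (UMIs, each standing for 1 captured RNA molecule), 500 to 4000 genes and less than 10% of its UMIs in mitochondrial genes. A kept barcode was a member with at least 2 UMIs of Cd209a, a C-type lectin of dendritic cells, and at most 4 UMIs over C1qa, C1qb and C1qc, the complement C1q genes of tissue macrophages. Of 6975 barcodes, 6095 were kept and 75 of these were members. The members were thus chosen by their measured Cd209a and C1q UMIs, so levels of these genes are given as a description only.

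The libraries came from female C57BL/6 mice 8 to 12 weeks old, with no transgene named for these samples. There were 2 control libraries from uninjured mice and 2 injury libraries from mice 3 days after crush of the sciatic nerve, which holds axons of these ganglia. Each library pooled the ganglia of several mice, so animals cannot be told apart. Ganglia (L4 in the sample labels, L4 and L5 in the methods) were treated with papain and collagenase, and live cells were sorted and loaded on a 10x 3′ droplet system.

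Dendritic cells take up antigen, cut it to peptides and show the peptides on major histocompatibility complex (MHC) class II molecules to CD4 T cells. Conventional dendritic cells depend on the receptor Flt3 and are split into a cDC1 type, which carries Xcr1 and Clec9a, and a cDC2 type, to which the lectins Cd209a, Clec10a and Mgl2 are often assigned. Plasmacytoid dendritic cells, marked by Siglech, are known for type I interferon, and mature dendritic cells switch on Ccr7 before they move to lymph nodes. In peripheral nerve and ganglia, resident macrophages also carry MHC class II, and monocytes enter after nerve damage.

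Control replicates 1 and 2 had 17 and 17 members, and injury replicates 1 and 2 had 31 and 10. In the same order of libraries the members' UMIs summed to 92350, 71340, 138735 and 50028, with a median of 4337 UMIs per member against 3763 over all kept barcodes. At this depth a gene without a UMI in the 352453 UMIs of all members can still lie at up to 8.51 CPM (UMIs of a gene scaled to the cells' UMI total), the level of 3 UMIs, and 0 of 75 members with a UMI leaves room for up to 4%, which limits the cells with a UMI and not those expressing the gene. Levels below are CPM of the members' summed UMIs, always in the order control replicate 1, control replicate 2, injury replicate 1, injury replicate 2. Since 1 molecule gives 1 UMI at its 3′ end whatever its length, CPM were compared between genes without division by length.

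The 10 core genes of conventional dendritic cells each had UMIs in the members and summed to 650, 575, 678 and 600 CPM, while each of those named here was found in a minority of members. Flt3 lay at 108, 56.1, 130 and 60.0 CPM, with a UMI in 24 members. Itgax, the integrin CD11c, lay at 108, 112, 108 and 60.0 CPM, with a UMI in 27 members. Zbtb46, a transcription factor of the conventional lineage, gave 1 UMI in 1 member, so that this marker was near 0. After thinning each barcode to 1000 UMIs, Flt3 was found in 12.0% of members, in 0.297% of C1q-high macrophages and in 0% of endothelial cells, the background for free RNA. Of the 10 genes of the cDC1 list, Xcr1, Itgae and Cd8a had no UMI and Clec9a had 4 UMIs in 3 members, while the other 6 had UMIs, among them Irf8 with 96 and Batf3 and Cadm1 with 22 each. This list summed to 466, 575, 742 and 600 CPM, against a mean of 592 CPM in C1q-high macrophages.

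Several defining genes of other cell types were at or near 0, while other genes of the same lists were not. Of the 21 genes of the macrophage list, Mertk, Ms4a7, Lyve1 and Folr2 had no UMI, while Adgre1 (the F4/80 antigen) gave 11 UMIs in 10 members. The summed level of this list was 1668, 16232, 1665 and 19269 CPM, and its most abundant gene was Apoe. Cd79a and Ms4a1 of B cells, Cd3g, Trac and Lck of T cells and Cdh5 and Kdr of endothelium had no UMI. The mast cell list had UMIs of Kit alone, and the B cell list had UMIs in 6 genes, led by Ighm. The monocyte list, led by Lyz2, summed to 5945, 5621, 6545 and 3458 CPM. Genes of glia, endothelium, fibroblasts, mural cells, neurons, erythroid cells and B cells together gave at least 5 UMIs in each of 44 members.

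Both libraries numbered 2 stood apart by glial and Apoe transcripts in the members. Apoe, the apolipoprotein that glia and macrophages share, lay at 195, 15097, 382 and 18030 CPM, and Fabp7, the lipid-binding protein that marks satellite glia, at 21.7, 1990, 7.21 and 2958 CPM. Satellite glial and Schwann genes took 0.0141%, 0.471%, 0.0324% and 0.490% of the members' UMIs, against 0.585%, 1.14%, 0.894% and 0.885% of those of all kept barcodes. Most glial UMIs lay in 6 members with at least 5 of them (0, 3, 1 and 2 by library), which held 280 of 293 Fabp7 UMIs. Scrublet, a doublet caller, marked 1 member and 0.573% of all barcodes, and doublets were removed only as an alternative. No member's barcode was shared between libraries, although 13 barcode sequences of kept cells were.

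The members' share of the cells differed between conditions by less than the spread between libraries. They were 1.31%, 1.27%, 1.30% and 0.929% of the kept barcodes, with exact 95% binomial intervals of 0.763 to 2.08%, 0.740 to 2.02%, 0.888 to 1.85% and 0.447 to 1.70%, which cover counting error only. Injury replicate 2 was the lowest, and its interval overlapped those of the others. The mean was 1.29% ± 0.0276 in control and 1.12% ± 0.265 after injury (SD, n = 2), a difference of -0.170 percentage points (exact permutation test, two-sided, p = 0.667, where 2 libraries against 2 cannot go below 0.33). Between the libraries numbered 1 the difference was -0.00252 points and between those numbered 2 it was -0.338 points. Of the kept barcodes with leukocyte transcripts, the members were 3.87%, 10.3%, 4.95% and 3.25%, so that on this denominator control replicate 2 was the highest. The live-cell sort and the dissociation set which cells enter these shares.

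**Figure D1:**
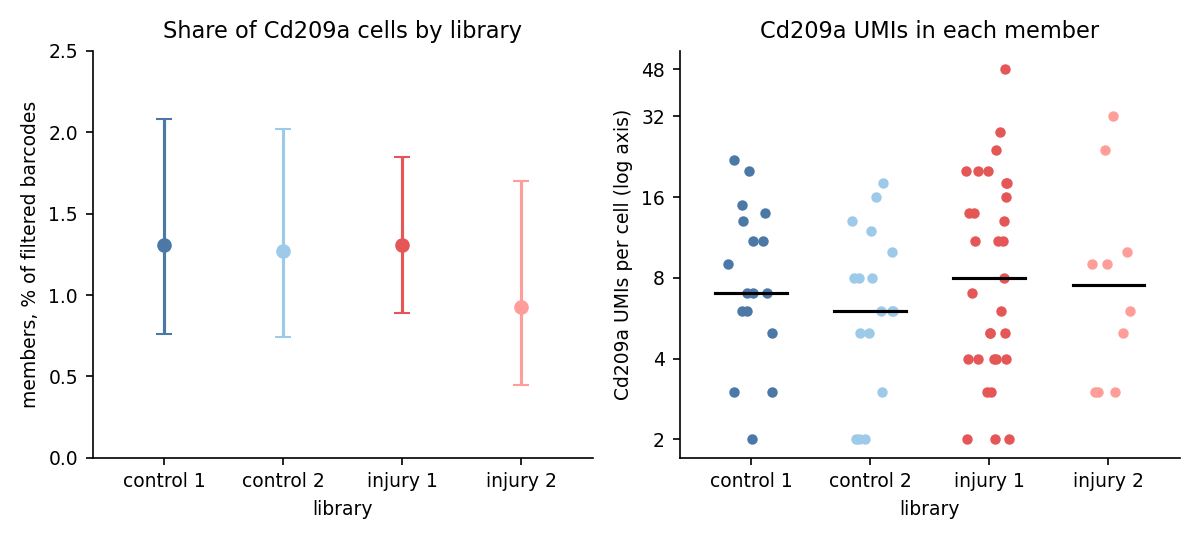
Share of Cd209a-positive members among kept barcodes in each library (left, points with exact 95% binomial intervals) and Cd209a UMIs in each member (right, log axis, 1 point per cell, line at the median). The 4 shares lie between 0.929% and 1.31% with overlapping intervals, and the UMIs per member run from 2 to 48 in similar ranges in all 4 libraries.

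Cd209a itself, which chose the cells, lies at chr8:3743397-3748984 on the minus strand of GRCm38 and gave 749 UMIs in the members, with a median of 7 per cell and a range of 2 to 48. Its level was 1743, 1822, 2552 and 2079 CPM. Members sat far from the upper C1q limit, as 66 had no C1q UMI and 9 had 1. Just inside the lower limit, 7 members had exactly 2 Cd209a UMIs, and 57.1% of them had Clec10a and 42.9% Mgl2. Just outside, 15 barcodes with 1 Cd209a UMI had Clec10a in 26.7% and Mgl2 in 6.67%. A further 18 barcodes had 2 or more Cd209a UMIs with over 10 C1q UMIs, and of these 61.1% had Adgre1 and 0% had Flt3. The 5 barcodes between, with 5 to 8 C1q UMIs, had Adgre1 in 20% and Flt3 in 40%. Among the other genes of the Cd209 family, Cd209d gave 30 UMIs in 16 members, Cd209b, Cd209c and Cd209e gave 3, 4 and 1 UMIs, and Cd209f and Cd209g gave none.

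MHC class II transcripts were the most abundant feature of these cells. Outside ribosomal and mitochondrial genes, Cd74, the invariant chain that guides class II molecules to the peptide-loading compartment, ranked first, and H2-Ab1, H2-Aa and H2-Eb1, which encode chains of the class II molecules themselves, were among the first 6. Cd74 lay at 57185, 40034, 58853 and 41677 CPM, H2-Ab1 at 22003, 12069, 22950 and 13373, and H2-Aa at 18657, 11564, 20593 and 12533. In each of these 3 genes the libraries numbered 1 were above those numbered 2, and the conditions overlapped. H2-DMa, which helps to load peptides, lay at 1613, 1430, 1838 and 1379 CPM and H2-Oa, which restrains that loading, at 455, 224, 519 and 280. Of the 14 genes of the class II list 13 had UMIs, and H2-Eb2 had none.

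Per cell, class II genes took a median of 11.4%, 10.1%, 12.4% and 9.55% of a member's UMIs. In C1q-high macrophages of the same libraries the medians were 10.1%, 6.92%, 2.53% and 0.299%. In the other gates the medians over all libraries were 0.0263% for cells with Ly6c2 and Ccr2, 1.21% for cells with Cd79 genes and 0% for endothelial cells. The members thus held the highest median in every library, and 6 of the 75 had less than 1% (1, 3, 1 and 1 by library).

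**Figure D2:**
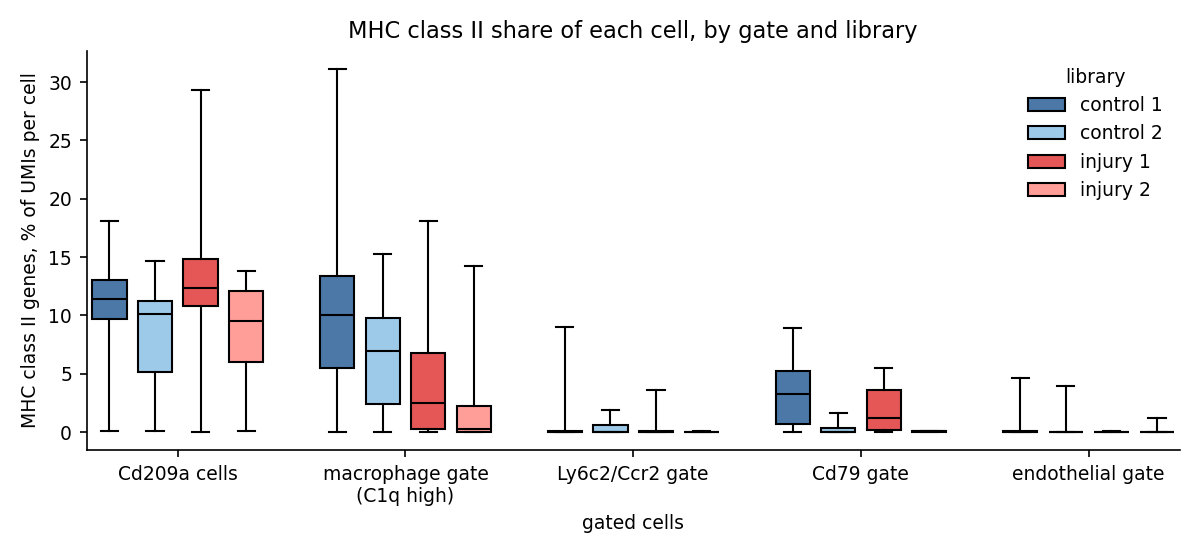
Percent of each cell's UMIs that lie in MHC class II genes, by gate and library (box, quartiles with the median; whiskers, lowest and highest cell). Medians in Cd209a cells stay between 9.55% and 12.4% in all 4 libraries, while those of the macrophage gate run from 10.1% in control replicate 1 to 0.299% in injury replicate 2.

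The class II genes lie close together on chromosome 17, H2-Ab1 at chr17:34257689-34269419 and H2-Eb1 at chr17:34305867-34316674 on the plus strand and H2-Aa between them at chr17:34282744-34287823 on the minus strand (GRCm38). Class II promoters are known for a shared pair of elements, the X box, bound by RFX proteins, and the Y box, bound by NF-Y, which together seat the coactivator CIITA. As these genes were high together in the members and differed together in the comparisons below, stretches before the start sites of H2-Aa (chr17:34287837-34287934, minus strand) and H2-Eb1 (chr17:34305746-34305842, plus strand) are shown from the RefSeq promoter table (GRCm38.p6), 5′ to 3′, with the letters GCAAC of the X box and CTGATTGG of the Y box in capitals.
H2-Aa: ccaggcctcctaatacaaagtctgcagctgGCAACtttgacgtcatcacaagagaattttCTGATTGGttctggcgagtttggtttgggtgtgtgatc
H2-Eb1: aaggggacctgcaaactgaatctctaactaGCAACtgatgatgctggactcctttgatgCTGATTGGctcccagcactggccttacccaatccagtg
The H2-Aa stretch covers bases 14 to 111 before the start and the H2-Eb1 stretch bases 25 to 121. On either strand, CTGATTGG was found in 1346 of 32851 promoters of 300 bases (4.10%), and GCAAC followed within 40 bases by CTGATTGG in 54 (0.164%). Of the 14 class II list genes 11 were in the table, and H2-Aa, H2-Eb1, H2-Eb2 and H2-Oa held both. These letters are a description of the sequence and not of binding.

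C-type lectins, receptors that bind sugars on microbes and glycoproteins, were found in many members. Clec10a and Mgl2, sister genes that bind galactose-type sugars, lie side by side on chromosome 11 at chr11:70156197-70170834 and chr11:70130329-70137550. Clec10a reached 422, 533, 562 and 600 CPM in 50 members with a UMI, and Mgl2 reached 823, 533, 1377 and 1179 CPM in 46 members. Both injury libraries were above both control libraries in each of these genes, as for 11.9% of all genes tested. Clec4b1, a lectin also called DCAR, lay at 325, 491, 526 and 360 CPM in 51 members, while Ly75, Cd207 and Clec4b2 had no UMI. After thinning, 30.7% of members had Clec10a against 7.72% of C1q-high macrophages, and 45.3% had Mgl2 against 35.0%.

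The leading cytokine transcript was Il1b, which encodes interleukin-1β. It gave 1099 UMIs in 55 members and lay at 2913, 1121, 4736 and 1859 CPM, with the libraries numbered 1 above those numbered 2 in both conditions. Of the 20 cytokines and growth factors listed, Il1a, Il10, Il12b, Il23a, Il27, Tnfsf13b and Igf1 had no UMI, and Tnf had 8 UMIs. Chemokine transcripts were led by Ccl4, which attracts monocytes and T cells, at 2339, 1766, 2335 and 1059 CPM, followed by Ccl9 and Ccl6, each in 49 members, whereas Ccl12 and Ccl24 had none. Ccl17, which attracts Ccr4-bearing T cells, gave 56 UMIs in 8 members at 563, 42.1, 7.21 and 0 CPM, and 31 of the UMIs lay in 1 cell.

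Receptors and costimulatory genes followed. Ccr2, the receptor that brings monocytes and their progeny into tissue, was found in 60 members at 368, 434, 584 and 520 CPM. The maturation gene Ccr7 gave 6 UMIs in 5 members and Fscn1, which bundles actin in mature dendritic cells, gave 1. Of the 13 costimulatory and checkpoint genes, Cd83 led with 348 UMIs in 57 members and Tnfsf9, the ligand of 4-1BB, followed at 682, 533, 807 and 460 CPM in 49 members. Cd86 was found in 28 members, Cd80 in 9 and Cd40 in 7, and Tnfsf4 and Cd70 had no UMI. Among Toll-like receptor genes and partners, Cd14 (39 members) and Tlr2 (29 members) led, and Tlr5, Tlr8, Tlr9 and Tlr12 had no UMI.

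All 24 transcription factors listed had UMIs. Nr4a1, an immediate early nuclear receptor, lay at 617, 575, 627 and 580 CPM, and Spi1, the myeloid factor PU.1, at 541, 463, 541 and 520, with little spread between libraries. Klf4, which a part of the cDC2 lineage needs, was found in 46 members, and Irf4, another cDC2 factor, gave 6 UMIs in 5 members. Immediate early genes, which also respond to dissociation, took a median of 1.47%, 1.52%, 1.40% and 1.25% of a member's UMIs, and their part in the levels above was not tested.

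The members were not uniform. In 5 of them (1, 1, 3 and 0 by library) at least 2 of 5 plasmacytoid genes were found, a threshold chosen after the values were seen. These 5 cells held all 21 Siglech UMIs, 78 of the 96 UMIs of Irf8, the factor of plasmacytoid and cDC1 cells, and 60 of the 141 UMIs of Bst2, a surface protein of plasmacytoid cells. They had 2 Clec10a UMIs and no Klf4, and their Cd209a UMIs ran from 2 to 6. In 4 others (1, 0, 1 and 2 by library) at least 3 of 11 cell cycle genes were found. Ly6c2, a monocyte surface gene, had UMIs in 13 members, and all 27 UMIs of Chil3, another monocyte gene, came from 1 member.

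The members were compared with other leukocytes of the same libraries to find which transcripts set them apart. C1q-high macrophages (at least 10 C1q UMIs and no Cd209a) numbered 241, 85, 478 and 207. Against these, edgeR's quasi-likelihood test with library as a block called a gene where the log2 difference was at least 2 in size and the adjusted p lay under 0.05. Of 2683 genes tested, 53 were called higher in the members (1.98%) and 133 lower (4.96%), with a median log2 difference over all genes of -0.04. Without control replicate 2 the calls were 105 higher and 210 lower. Genes of either gate were left out of the calls, and macrophage genes that go together with C1q follow the gate in part.

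Antigen presentation and dendritic cell genes were among those higher in the members. Of the 10 core dendritic cell genes 4 passed the filter on low counts and were tested, and 3 of these were called higher. With 12 UMIs of Flt3 in all the macrophages, this gene could pass the filter only by its level in the members. The count of 3 of 4 is thus a description and no test of the list. The 3 genes were Flt3 (log2 difference 5.09 ± 0.58 SE, adjusted p = 0.000242 by edgeR), Itgax (3.14) and Kmo, an enzyme of tryptophan breakdown (2.48). Of the 12 class II genes tested of 14, 3 were called higher, H2-Oa (5.27) and H2-Ob (3.80), chains of the loading inhibitor, and H2-DMb2 (4.29), a chain of the loading factor, and 1 was called lower, Lgmn, a lysosomal protease. Napsa, an aspartic protease, lay at 747, 322, 987 and 520 CPM in the members and at 33.4, 9.51, 11.1 and 3.44 in the macrophage gate (5.69 ± 0.45 SE). The median of the class II list was 1.14, and Cd74 and the class II chains were also high in control macrophages.

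Some single genes better known from natural killer (NK) and T cells were higher in the members, but the list fixed for those cells gave no count, as none of its 14 genes passed the filter on low counts. Klrd1, which encodes the CD94 receptor chain, lay at 390, 392, 627 and 380 CPM in the members and at 0, 0, 1.19 and 0.859 in the macrophage gate (8.99 ± 0.34 SE, adjusted p = 3.46e-07). It was found in 47 of the 75 members. Within each library the members lay above the macrophages, as for 16.8% of all genes tested, while 20.5% had the opposite order in each library. Cd7, an immunoglobulin-type surface protein, gave 69 UMIs in 19 members and 1 UMI in the 1011 macrophages, a pooled CPM ratio of 941 with an exact 95% counting interval of 163 to 37702. The lectin-type receptors Klrb1b (5.41) and Klrk1 (3.80, chosen after its value was seen) and the integrin chain Itgb7 (6.62), which is part of the gut-homing integrin, were also called higher. Defining NK and T cell genes were near 0 in the same members, with no UMI of Ncr1, Gzma, Cd3g, Trac or Lck and 3 UMIs of Nkg7.

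Genes of the S100 and annexin families, calcium-binding proteins of mobile myeloid cells, were listed together with galectins, Vim and Ahnak. Of 13 tested of 14 listed, 7 were called higher, 6 of them S100 or annexin genes and the other the galectin Lgals3, with a list median of 2.20. S100a6 lay at 1852, 2018, 1672 and 1839 CPM in the members and at 213, 355, 158 and 272 in macrophages (2.92 ± 0.19 SE), and the gates did not overlap. S100a4 (3.83), S100a11 (2.93), Anxa1 (2.74) and Lgals3 (2.48) were called as well. Outside the lists, the rule on largest differences named Mcemp1 (5.24), a surface protein of myeloid cells, Ltb4r1 (4.99), a receptor for the lipid attractant leukotriene B4, Plac8 (4.60) and Ear2 (4.42), a ribonuclease of eosinophils and some monocytes. Of the costimulatory genes 2 of the 4 tested were called, Tnfsf9 (2.75) and Slamf7 (2.68).

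Macrophage genes and most chemokines tested were lower in the members. Of the macrophage list 13 of 16 tested were called lower, with a median of -3.36, or -3.24 with genes that had no UMI set at their bound. Ccl12, a monocyte attractant, was at least 266-fold lower, Ms4a7, a macrophage membrane protein, at least 124-fold and Igf1, a growth factor of resident macrophages, at least 18.8-fold, each against the level of 3 UMIs over all members. Pf4, a chemokine of macrophages and platelets, had 2 UMIs in the members (pooled ratio 436, interval 121 to 3602). Csf1r, the receptor for macrophage growth factor, lay at 75.8, 140, 79.3 and 80.0 CPM against 1165, 771, 797 and 752 (-3.29 ± 0.28 SE). Of 11 chemokines tested 7 were called lower, among them Ccl2 (-4.54), Cxcl2 (-5.29) and Ccl3 (-2.15), while Ccl4 had a difference of -0.58 (adjusted p = 0.0514 by edgeR). Ccl9 (1.11, adjusted p = 0.00464 by edgeR) and Ccl6 (1.03, adjusted p = 0.0334) were higher in the members, short of the limit on the fold. Il1b was higher by 1.92 with an adjusted p of 0.00852 by edgeR, short of the limit on the fold.

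**Figure D3:**
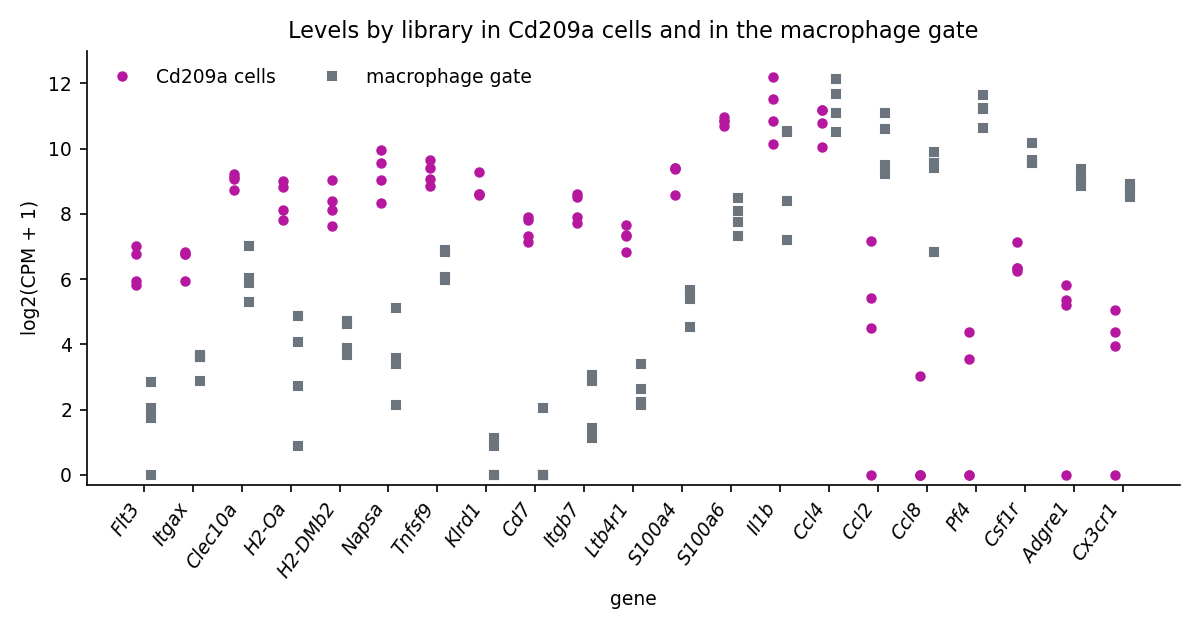
Levels of genes in Cd209a cells (circles) and in the C1q-high macrophage gate (squares), as log2(CPM + 1), 1 point per library. Flt3, Klrd1, Cd7 and Itgb7 are higher in each library of Cd209a cells than in its macrophages, where they are near 0. Flt3 rests on 35 UMIs in the Cd209a cells, and its 60.0 CPM in injury replicate 2 is the level of 3 UMIs there. Pf4, Ccl8 and Csf1r have the opposite order.

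Class II genes were higher in the members than in cells with at least 2 UMIs of Ly6c2 and 1 of Ccr2, and monocyte and granule genes were lower. These cells numbered 34, 7, 25 and 14, and since Elane, Mpo and other granule genes were abundant in them the gate held myeloid precursors beside monocytes. In the 3 libraries with at least 10 cells on both sides, all but control replicate 2, edgeR called 55 of 1387 genes higher in the members (3.97%) and 28 lower (2.02%), with a median over all genes of -0.02. Of the 12 class II genes tested 9 were called higher, with a list median of 4.68. Cd74 was higher by 5.46, H2-Aa by 5.57, H2-Ab1 by 5.37 and Mgl2 by 6.28 on the log2 scale. Of the 7 lectin genes tested 3 were called higher, Mgl2, Clec10a (4.75) and Clec4b1 (3.42), with a list median of -0.01. Cxcl16, a chemokine that is also a scavenger receptor (3.99), Cd83 (3.46) and Il1b (2.27) were called as well, and Tnip3, an inhibitor of NF-κB signalling, was at least 19.0-fold higher.

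Of the 12 monocyte genes tested, 7 were called lower in the members than in the Ly6c2 and Ccr2 gate. Lyz2, lysozyme, lay at 1473, 2580 and 999 CPM in the members of control replicate 1, injury replicate 1 and injury replicate 2, against 34959, 33940 and 16356 (-3.87 ± 0.23 SE, adjusted p = 0.00019 by edgeR). Chil3 (-4.19), F13a1, a clotting factor chain of monocytes (-4.06), and Plac8 (-2.85) were lower too. The granule proteases Elane, Prtn3 and Ctsg were at least 96.0-fold, 65.0-fold and 37.7-fold lower. S100a6 (-0.16) and S100a4 (-0.30), which set the members apart from macrophages, did not pass the test here (adjusted p = 0.586 and 0.329 by edgeR). Without injury replicate 1 the calls of this comparison were 1 higher and 0 lower, without control replicate 1 they were 63 and 45, and without injury replicate 2 they were 76 and 52.

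Cells with Cd79 genes, the B cell gate, could be compared in control replicate 1 and injury replicate 1 alone. Of 1032 genes tested, edgeR called 116 higher in the members (11.2%) and 57 lower (5.52%), and DESeq2 called 37 and 13. With 2 libraries and library as a block, this fit left 1 residual degree of freedom. H2-Ab1 was higher in the members by 3.21 and Cd74 by 2.16. Mgl2, Tnfsf9 and Klrd1 had no UMI in the gate and were at least 36.6-fold, 24.0-fold and 16.9-fold higher. Igkc, an antibody light chain, and Ebf1, a B cell factor, were at least 2612-fold and 187-fold lower, and Vpreb1 and Igll1, the surrogate light chain genes of B cell precursors, at least 47.8-fold and 34.9-fold. Ccr7 was lower in the members by 4.30.

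Injury was then compared with control within the members, over 2 libraries per condition. No gene of 1137 tested passed (0% higher and 0% lower; edgeR's quasi-likelihood test), 21 genes had an unadjusted p under 0.05, and DESeq2 called 1 gene higher. The smallest adjusted p was 0.460, and the median log2 difference was -0.01. Both injury libraries were above both control libraries in 11.9% of genes and below them in 12.2%. Without control replicate 2 edgeR called 17 genes higher and 6 lower, and without injury replicate 2 it called 1 higher. With the replicate number as a block edgeR called 1 gene higher, Ifitm1 (adjusted p = 2.52e-10). The same fit called 4 lower, AW112010 (adjusted p = 0.000132), Isg15, a ubiquitin-like protein, Tgfb1, a growth factor, and Apod, an apolipoprotein also found in glia. The blocked fit and those without 1 library left 1 residual degree of freedom, so their p values and calls are given as alternatives only. The study's reporting summary speaks of batches of pooled mice, but neither it nor the labels say that a number marks 1 batch in both conditions. Data were simulated for these libraries with 1 common spread for all genes and tested by edgeR at an adjusted p under 0.05 alone. This found 50% of genes with a 4-fold change and 94% with an 8-fold change, without the limit on the fold that a call needs.

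Ifitm1, an interferon-inducible membrane protein at chr7:140967221-140969825 (GRCm38), had the smallest p and was the gene DESeq2 called. It lay at 32.5, 14.0, 1009 and 400 CPM, so that both injury libraries were far above both controls. The log2 difference was 4.81 ± 0.67 SE (adjusted p = 0.460 by edgeR). A UMI was found in 1 of 17 and 1 of 17 control members and in 11 of 31 and 3 of 10 injury members, 164 UMIs in all with at most 33 in 1 cell. In the macrophage gate the level was 4.94, 12.7, 4.77 and 11.2 CPM. After thinning, 12.0% of members and 1.67% of endothelial cells had a UMI.

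The other 9 genes named by smallest p each had an adjusted p of 1.00 by edgeR. Ctsc, which activates granule proteases, lay at 411, 449, 865 and 740 CPM (log2 difference 0.89), and Fh1, a mitochondrial enzyme of the citric acid cycle (1.80), Polr2e, an RNA polymerase subunit (1.31), and Tspan13, a membrane protein (0.94), had the same direction. In the other direction were AW112010, an interferon-responsive transcript, at 303, 266, 28.8 and 60.0 CPM (-2.83), Aif1, the myeloid protein IBA1 (-1.62), Samhd1, a restriction factor (-1.59), and Socs3, an inhibitor of cytokine signalling (-1.13). B2m, the light chain of MHC class I, lay at 4775, 3336, 2407 and 2139 CPM (-0.83). In each of these genes, which were chosen by p in the same libraries, the conditions did not overlap. This held for 11.9% of all genes tested with injury higher and for 12.2% with injury lower. All 7 class I genes tested of 12 had differences below 0, with a median of -0.62 and none called, while 556 of 1136 genes lay above 0. In the macrophage gate all 11 class I genes tested lay below 0 as well, also with a median of -0.62. There 3456 of 7251 genes lay above 0, with a median of -0.03, and both gates came from the same libraries.

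**Figure D4:**
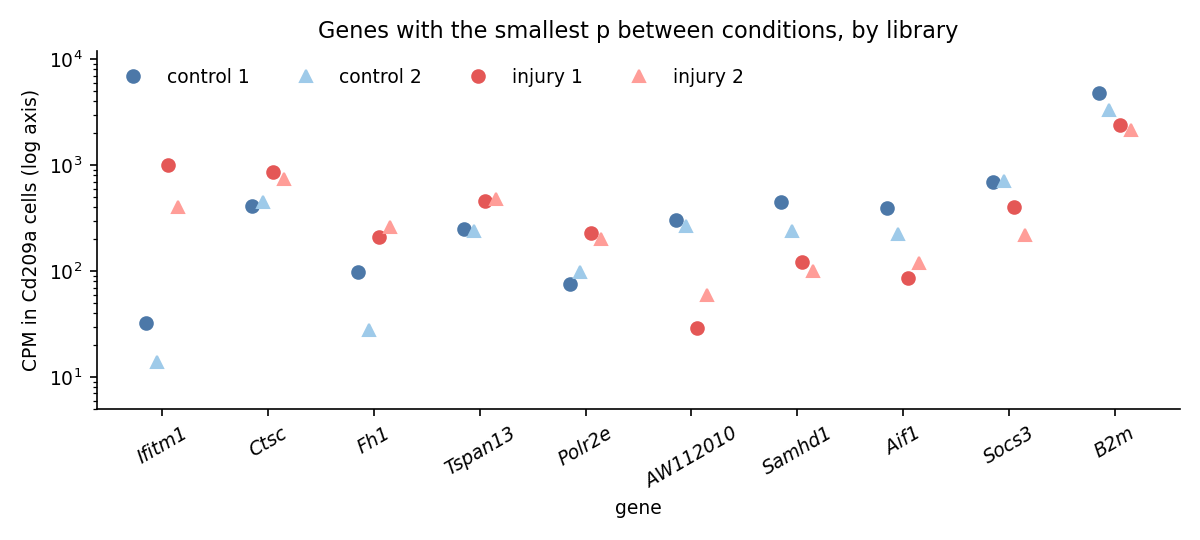
Levels in Cd209a cells of the 5 genes with the smallest p in each direction between injury and control (CPM, log axis; circles, libraries numbered 1; triangles, libraries numbered 2). Ifitm1 runs from 14.0 and 32.5 CPM in control to 400 and 1009 CPM after injury. The genes were chosen by p in these libraries, and the conditions do not overlap for any of them. Over all genes tested this held for 11.9% with injury higher and 12.2% with injury lower.

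The gene lists gave no call between conditions in the members. Of the 14 class II genes 11 were tested, and their median was 0.10, with Cd74 at 0.04, H2-Ab1 at 0.09, H2-Aa at 0.13 and H2-Eb1 at 0.01. The sign of each of these 4 values turned under some alternatives, so no direction was read from them. Mgl2 had a difference of 0.91, or -0.38 without the 44 members that held at least 5 UMIs of other lineages' genes, and Clec10a of 0.27. The 9 transcription factors tested had a median of 0.20, the 12 genes tested of the S100, annexin and galectin list of -0.11 and the 5 chemokines of 0.01.

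The injury difference of H2-Ab1 and of Mgl2 was more positive in the members than in macrophages by a direct test, a call that did not hold under every alternative. In the macrophage gate Cd74 lay at 53232, 34047, 17901 and 9252 CPM, H2-Ab1 at 17599, 10499, 5707 and 2715 and Mgl2 at 1610, 669, 315 and 362, with both injury libraries below both controls in each gene, as for 11.9% of all genes tested in that gate, while 25.8% had the opposite order. All 16 cell cycle genes listed lay above 0 between conditions in that gate (median log2 difference 1.89, none called), 14 of them with both injury libraries above both controls, and their part in the class II values was not tested. Within that gate alone edgeR called no gene of 7254 between conditions, with 460 at an unadjusted p under 0.05 (log2 difference of H2-Ab1 -1.85 and of Cd74 -1.80). The injury difference of the members minus that of the macrophages, with library as a block, was a test added after the values were seen. Of 3538 genes, 2 passed with a positive value (0.0565%) and 0 with a negative one (0%), by edgeR and by DESeq2 alike in number, and 168 had an unadjusted p under 0.05. Leaving out any 1 library gave 8 to 20 positive and 2 to 5 negative calls, with 20 and 5 without control replicate 2. Of the 13 class II genes tested, 1 was called and 4 passed on adjusted p alone, with a list median of 1.38 against 0.01 over all genes.

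The 2 genes that passed with all libraries were H2-Ab1 (log2 2.09 ± 0.17 SE, adjusted p = 0.000293 by edgeR) and Mgl2 (2.82 ± 0.35 SE, adjusted p = 0.0059). Cd74 (1.97 ± 0.16 SE, adjusted p = 0.000293), H2-Aa (1.96, adjusted p = 0.000444) and H2-Eb1 (1.90, adjusted p = 0.00155) passed on p in the same fit and lay just under the limit on the fold. Malat1, a nuclear RNA, had 1.68 (adjusted p = 0.0134). Without the 6 members that held glial UMIs the values for H2-Ab1 and Cd74 were 2.19 and 2.08. Without the 44 members with UMIs of other lineages, which left 7, 5, 17 and 2 by library, they were 1.71 and 1.61, H2-Eb1 was 1.42 (adjusted p = 0.124 by edgeR) and Mgl2 1.53 (adjusted p = 1.00 by edgeR), so that neither H2-Ab1 nor Mgl2 passed both limits and the 3 genes called were Ly6c2, Ly6a and Plac8. With the lower limit on Cd209a at 1 or at 3 UMIs no gene passed both limits with a positive value, 1 gene passed with a negative one at 1 UMI (Dcn, a matrix proteoglycan), and H2-Ab1 was at 1.90 and 1.89.

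**Figure D5:**
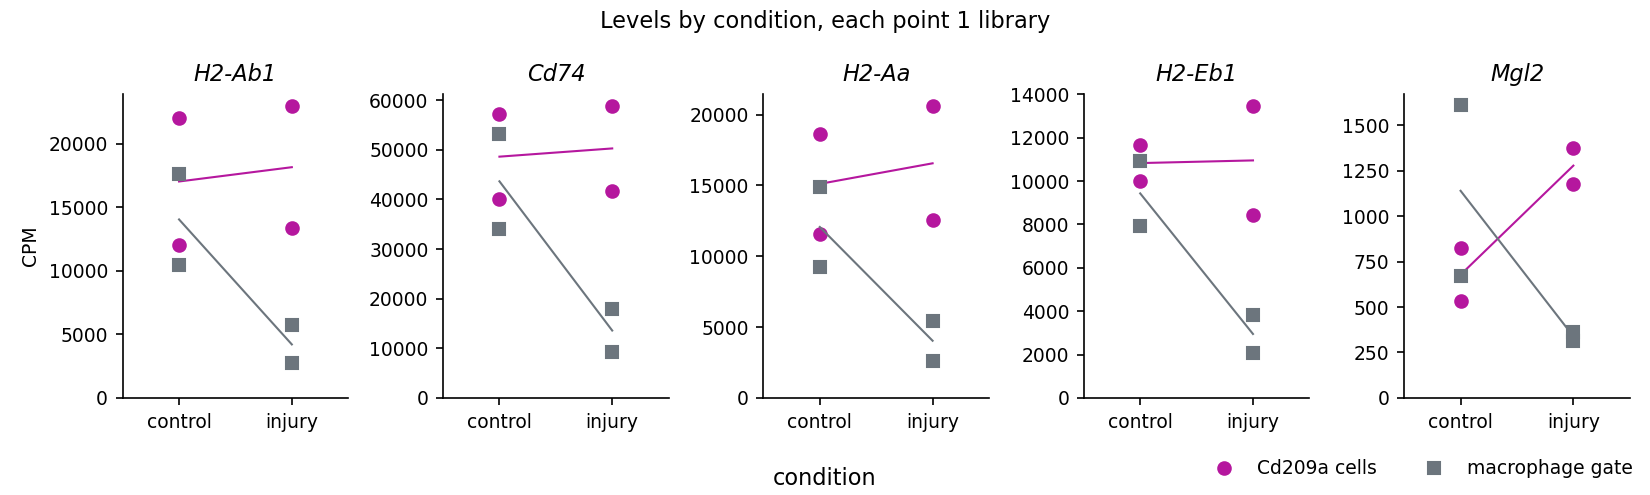
CPM of the class II genes and Mgl2 by condition in Cd209a cells (circles) and in the C1q-high macrophage gate (squares), 1 point per library, lines through the means. In macrophages both injury libraries lie below both control libraries for each of the 5 genes, while in Cd209a cells the class II values of the conditions overlap and Mgl2 is higher in both injury libraries.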

How the data were processed

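The authors deposited raw UMI counts per gene and barcode for each library from Cell Ranger (mm10), before the cell limits of their methods, and used Partek for later steps. The limits were applied here, and no normalized values were used. The members and all gene lists were chosen with earlier results of these data known. Raw UMIs were summed per library and gate and tested with edgeR 4.0.16 (TMM, filterByExpr, glmQLFit, Benjamini-Hochberg adjustment over all genes tested), in R 4.3.3, and a call needed a log2 difference of at least 2 in size beside an adjusted p under 0.05. DESeq2 1.42.0 was an alternative. Gates of other cells entered with at least 10 cells per library on both sides. Named genes were the 10 with the largest difference in each direction among those called with an average log2 CPM of 5 or more and 1 direction in every library, the 5 with the smallest p where fewer than 5 were called, the 20 most abundant genes, and list examples by level or call; list and other genes outside this rule were chosen after their values were seen. Scripts were tested on simulated data. Shares were compared with an exact permutation test over libraries. Promoters came from RefSeq and loci from GENCODE (both GRCm38).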

Additional observations from a re-analysis of the deposited data

Results flagged for a closer look

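On adjusted p alone, with no limit on the fold, the injury difference of 6 genes differed between the members and the C1q-high macrophages by the test of that difference itself (edgeR, library as a block, added after the values were seen). The log2 values, members minus macrophages, were 2.09 for H2-Ab1, 1.97 for Cd74, 1.96 for H2-Aa, 1.90 for H2-Eb1, 2.82 for Mgl2 and 1.68 for Malat1. Of these, H2-Ab1 and Mgl2 also passed the limit on the fold, and without members holding other lineages' UMIs neither did (adjusted p of Mgl2 1.00 by edgeR). In the macrophages both injury libraries were below both controls in each of the 4 class II genes, as for 11.9% of genes tested there, and in the members the conditions overlapped. Groups of 2 libraries were too small to look for single libraries far from the rest.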

How the results depend on the processing

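Over 140 named genes and 2234 values under the alternatives, 2113 kept their direction and side of the threshold, 65 fell short of it, 32 newly passed it and 24 changed sign, in 8 genes. The difference in share was -2.99 points of leukocytes, and leaving out 1 library gave -0.358 to 0.0170 points, the last without injury replicate 2, where the sign turned. Between conditions, genes called higher were 1 with Cd209a at 3 UMIs or more, 1 by DESeq2, 3 with no filter on low counts and 0 to 17 leaving out 1 library. Genes called lower were 1 with Cd209a at 1 UMI or more, 5 with no filter and 0 to 6 leaving out 1 library, and 17 and 6 came without control replicate 2. With the replicate number as a block, a fit with 1 residual degree of freedom, 1 gene was higher and 4 lower. Deviations of same-numbered libraries correlated (r = 0.584 over 1137 genes), but 2 pairs do not establish that the numbers pair the libraries. Ifitm1 was tested in 15 of the alternatives and passed in 6, among them fits with 1 library left in a condition. Its log2 value ran from 4.03 to 5.53. It was not tested without Scrublet barcodes, without members holding other lineages' UMIs or without those holding glial UMIs.

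The sign changes between conditions were in genes with no call there. Without members holding other lineages' UMIs the log2 values were -0.38 for Mgl2, -0.27 for Cd209a, -0.066 for H2-Ab1, -0.26 for H2-Eb1 and -0.16 for Cd74. With Cd209a at 3 UMIs or more they were -0.065 for H2-Ab1, -0.049 for H2-Aa, -0.20 for H2-Eb1 and -0.11 for Cd74, and at 1 or more -0.10 for H2-Eb1 and -0.055 for Cd74. H2-Eb1 was at -0.018 without members with plasmacytoid genes, -0.0017 with no TMM and -0.019 with the replicate number as a block. Leaving out 1 library gave -0.27 to 0.58 for H2-Ab1, -0.19 to 0.51 for H2-Aa, -0.29 to 0.29 for H2-Eb1, -0.15 to 0.32 for Cd74 and -0.033 to 1.54 for Il1b. In the difference from macrophages, AW112010 was at 1.45 without members holding other lineages' UMIs, against -1.80 with them.

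Against macrophages the calls were 148 higher and 344 lower with no filter and 224 and 289 with no limit on the fold. Leaving out 1 library gave 54 to 105 higher and 125 to 210 lower, with 105 and 210 without control replicate 2. Against cells with Ly6c2 and Ccr2 they were 132 and 118 with no filter and 113 and 71 with no limit on the fold. Genes called lower were 52 without Scrublet barcodes and 44 without members holding glial UMIs, settings that left 9 and 8 members in injury replicate 2 and so took this library out of the comparison, and leaving out 1 library gave 1 to 76 higher and 0 to 52 lower, with 1 and 0 without injury replicate 1. Against cells with Cd79 genes they were 37 and 13 by DESeq2, 237 and 90 with no filter and 179 and 131 with no limit on the fold, and no library could be left out.

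For the injury difference of the members minus that of macrophages, genes with a positive value numbered 0 with Cd209a at 1 UMI or more and 0 at 3 or more, 5 without Scrublet barcodes, 6 without members holding glial UMIs, 7 with no filter, 6 with no limit on the fold and 8 to 20 leaving out 1 library. Those with a negative value numbered 1 with Cd209a at 1 UMI or more, 4 with no filter and 2 to 5 leaving out 1 library, where 1 residual degree of freedom remained. Over 17 alternatives H2-Ab1 ran from 1.71 to 2.19 (highest adjusted p 0.0232 by edgeR or DESeq2), Cd74 from 1.61 to 2.12 (0.0277), H2-Eb1 from 1.42 to 2.05 (0.124) and Mgl2 from 1.53 to 3.13 (1.00), all with the same sign. The cause of these shifts was not tested. With 10 to 31 members in a library, the test of this difference was also run on data simulated with 1 common spread for all genes. At an adjusted p under 0.05 alone it found 22.5% of genes with a 4-fold difference of this kind and 71.5% with an 8-fold one.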

Other observations

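The summed level of interferon-induced genes in the members overlapped between conditions. Of the 24 listed 23 had UMIs, and their sum was 6497, 3224, 6084 and 3758 CPM in the order used above, with both libraries numbered 1 above both numbered 2. Isg15, a ubiquitin-like protein, lay at 314, 126, 36.0 and 80.0 CPM. Ifitm3 and Ifitm2, neighbours of Ifitm1 in the same gene family, lay at 2783, 1570, 2530 and 1659 CPM and at 1397, 813, 2148 and 1439 CPM, and the conditions overlapped for Ifitm3, while for Ifitm2 both injury libraries were above both controls, as for 11.9% of genes tested in the members.

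Cell cycle genes summed to 2241, 967, 1024 and 3178 CPM in the members, led by Tubb5, a tubulin, and the highest library was injury replicate 2, which held 2 of the 4 members with cell cycle genes among its 10. In the 5 members with plasmacytoid genes class II genes took 0.402% to 3.77% of UMIs, below the median of 11.4% over all members. The median Cd209a count was 3.5 UMIs in the 6 members with less than 1% class II and 8 in the others.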
